A study of Mus musculus with 8 samples.

Results

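Joining of a Cas9-broken chromosome end was compared between a break in Dach1 and a break in Supt16, both on mouse chromosome 14, in cells that received the cutting plasmid and no ataxin-7 plasmid. Dach1 encodes a dachshund-family regulator of transcription, and Supt16 encodes a subunit of FACT, a histone chaperone that helps RNA polymerase pass nucleosomes. A junction was a distinct chromosome, 5′ read end and strand, taken over the deposited on-cut and off-cut lists together. The Dach1 library held 3873 junctions and the Supt16 library 575 junctions, 4448 of the 11310 junctions in the 8 libraries of the series.

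The series asked where a broken end is joined when ataxin-7 has a normal or an expanded polyglutamine tract. All groups used here were Neuro-2a cells, a mouse neuroblastoma line. The first group received spCas9 with the site 1 (Dach1) sgRNA, and the second received spCas9 with the site 2 (Supt16) sgRNA. For background, 1 library per bait primer came from cells given a non-targeting sgRNA. Transfection was transient, cells were collected 48 h later, 3 transfections were pooled per library, and GFP-positive cells were sorted. DNA was sheared to 750 bp and amplified from a biotinylated primer beside the cut. Each group was 1 pooled library, so every test below compares these libraries' junctions and has no replicate check of the baits. For this control experiment the design text of the series speaks of site 2 and non-targeting sgRNAs alone, but a site 1 library of this kind is among the labelled samples. The Dach1 values depend on that label.

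When Cas9 cuts both DNA strands, the ends are mostly rejoined by non-homologous end joining, with or without loss of bases. Broken ends can be chewed back before joining, which gives deletions, and an end can instead join a second break elsewhere, which gives an inversion, a deletion or a translocation. Translocation capture reads outward from the bait side of the break, so the first base after the bait marks the partner, called the prey.

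The spacers and primers define the breaks and the fixed end of every junction, and are shown for that reason. In the spacers the capitals mark the 3 bases on the PAM side of the position where Cas9 usually cuts.

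Dach1 spacer: ggtagacatcagcgctgTTG

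Supt16 spacer: ctcgcagccctccaccgTAA

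Dach1 bait primer: actaaaaagagcgcccctctttc

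Supt16 bait primer: ggtttcccctccgctcttta

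The spacers were 55% and 65% GC, and the primers 47.8% and 55% GC (Dach1 first). The bait end, the commonest 5′ end in the non-targeting library, lay at chromosome 14 position 98168726 (mm10) in Dach1 and 52181662 in Supt16. The coordinate of the cut could not be read, so the distance from bait end to cut is unknown at both baits. All distances below run from the bait end and are not deletion sizes. Reads from an intact locus run to higher coordinates on the plus strand, and "downstream" is used here for that direction. Both genes lie on the minus strand, so downstream points to the start of the gene. Only gene bodies were annotated, so exons and introns at the bait ends are not described. The Dach1 bait end was 1039 bp inside the gene's start (gene body 97786846 to 98169765), and the Supt16 bait end 15577 bp inside it (52160419 to 52197239).

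The Dach1 library was deeper. It held 8812 reads, 8788 of them on assembled chromosomes, and the Supt16 library held 1527 reads, 1524 of them on assembled chromosomes. The non-targeting libraries held 625 reads and 128 junctions with the Dach1 primer, and 986 reads and 59 junctions with the Supt16 primer. Junctions averaged 2.27 reads in the Dach1 library and 2.65 in the Supt16 library. Since single-read junctions accumulate with depth, the Dach1 library was thinned to 1524 reads in 1000 random draws for values given at equal reads. The bait-end test, per-chromosome and within-library tests, distance quartiles, densities and counts by gene used all reads. The value called "at equal reads" is the mean over draws. Shares of all junctions are given with exact Clopper-Pearson 95% intervals, and those intervals and every limit from a count of 0 cover counting error only, because PCR reads carry no molecular identifiers. Adjusted p-values of shares compared at equal reads use the median p over draws of a two-sided Fisher's exact test. Other adjusted p-values come from a single exact test on all reads. All were Benjamini-Hochberg adjusted within each family of tests. The most frequent aligned length was 141 bp with the Dach1 primer and 162 bp with the Supt16 primer; the part of this difference in the results was not tested.

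At equal reads the Dach1 break gave more distinct junctions. Thinned to 1524 reads, the Dach1 library kept 1108 junctions (95% range of the draws, 1077 to 1136), against 575 in the Supt16 library, a ratio of 1.93 (1.87 to 1.98). Without thinning the ratio was 6.74, beside 5.77 times as many reads. With all reads within 50 bp of the bait end left out, which lowers the number of reads drawn, the ratio at equal reads was 1.24. With only junctions of 2 or more reads kept, it was 4.36. That filter was applied before thinning, at unequal depth, so 4.36 is not a value at equal depth.

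**Figure D1:**
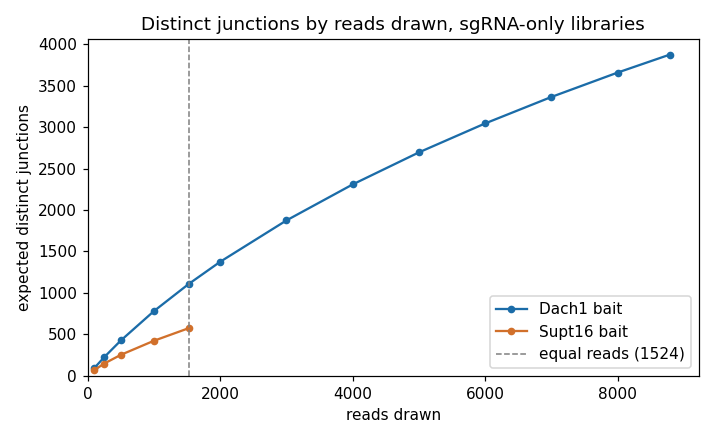
Expected distinct junctions (y axis) against reads drawn (x axis) in the Dach1 and Supt16 sgRNA-only libraries. At 1524 reads, the dashed line, the Dach1 curve stood at 1108 junctions and the Supt16 curve ended at 575, and neither curve had levelled off.

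Few reads at either cut bait looked uncut. Reads starting exactly at the bait end were 190 of 8788 (2.16%, 1.87 to 2.49) in the Dach1 library and 113 of 1524 (7.41%, 6.15 to 8.85) in the Supt16 library. The same reads made up 378 of 625 (60.5%) with the Dach1 primer and 917 of 986 (93.0%) with the Supt16 primer in the non-targeting libraries. The bait-end share in the Dach1 library minus that in the Supt16 library was -5.25 percentage points (Fisher's exact test on reads, p = 8.05e-23). Reads are not independent molecules, so that p overstates the precision. An exact rejoining with no base lost has the same read start as an uncut locus and was counted with it.

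Recorded junctions lay farther along the chromosome from the Dach1 bait end than from the Supt16 bait end. The first 1 kb at Dach1 includes stretches with no plus-strand junction, described below. Whether plus-strand reads starting there can be aligned was not tested. The part of these stretches in the shares and distances that follow was not tested either. Within 1 kb of the bait end lay 518 of 3873 junctions (13.4%, 12.3 to 14.5) in the Dach1 library, and 20.9% at equal reads, against 310 of 575 (53.9%, 49.7 to 58.0) in the Supt16 library (adjusted p = 3.25e-41, Fisher's exact test). The size of this difference (-33.0 points) depended on the counting: it was -16.9 points with positions within 5 bp merged (3.44% against 20.3%) and -64.4 points with junctions of 2 or more reads (29.4% against 93.8%). Merging joined each position to the next, so runs of any length became 1 junction. Both settings were applied before thinning, at unequal depth. The next step outward ran the other way. Between 1 and 10 kb lay 1150 junctions (29.7%, and 32.8% at equal reads) in the Dach1 library and 80 (13.9%) in the Supt16 library (adjusted p = 3.02e-17, Fisher's exact test). Between 10 and 100 kb lay 250 junctions (6.45%, and 5.65% at equal reads) in the Dach1 library and 13 (2.26%) in the Supt16 library (adjusted p = 0.00269, Fisher's exact test). Between 100 kb and 1 Mb there were 75 junctions in the Dach1 library and 1 in the Supt16 library. In both non-targeting libraries, 10 kb to 1 Mb held 0 junctions, which allows up to 2.34% with the Dach1 primer and 5.08% with the Supt16 primer.

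Summed outward, the gap between the baits narrowed. Within 10 kb lay 1668 junctions (43.1%, 41.5 to 44.6) in the Dach1 library, 53.6% at equal reads, against 390 (67.8%, 63.8 to 71.6) in the Supt16 library (adjusted p = 7.20e-08, Fisher's exact test). That difference, -14.2 points, was -9.50 points without 50 bp around the bait end and -30.3 points with junctions of 2 or more reads, kept before thinning. Within 1 Mb lay 1993 junctions (51.5%, 49.9 to 53.0) in the Dach1 library, 60.9% at equal reads, against 404 (70.3%, 66.3 to 74.0) in the Supt16 library (adjusted p = 3.77e-04, Fisher's exact test). This last call ended when reads within 50 bp of the bait end were left out: the difference was then -5.22 points, with an adjusted p of 0.132 by Fisher's exact test. In the non-targeting libraries 19 of 128 junctions (14.8%) lay within 10 kb with the Dach1 primer and 10 of 59 (16.9%) with the Supt16 primer. The deposited on-cut lists could not be compared as they stand, since on-cut reads reached 967555 bp from the Dach1 bait end and 33393 bp from the Supt16 bait end.

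Among junctions within 10 kb the median distance from the bait end was 1453 bp (1186 bp at equal reads, 1126 to 1248 over draws) in the Dach1 library and 341.5 bp in the Supt16 library. For downstream plus-strand junctions, the direct continuation or deletion type, the quartiles were 728.5, 1287 and 2735.5 bp in the Dach1 library. In the Supt16 library they were 113, 314 and 750 bp, so the upper quartile at Supt16 lay close to the lower quartile at Dach1. Weighted by reads, the contrast was wider: the median read began 1002 bp downstream in the Dach1 library and 39 bp downstream in the Supt16 library. The part of the empty stretches at Dach1 in these distances was not tested.

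The most-read positions differed in the same way. In the Supt16 library the position with most reads was 18 bp downstream of the bait end (145 reads), more than the 113 at the bait end itself. Positions 21 bp (54 reads), 25 bp (31 reads) and 39 bp (26 reads) followed. In the Dach1 library the bait end led with 190 reads, and the next positions were 1307 bp (84 reads), 455 bp (64 reads), 452 bp (60 reads) and 472 bp (59 reads) downstream. None of these positions other than the bait ends had a read in the non-targeting libraries.

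Plus-strand junctions within 200 bp downstream were a small share at Dach1 and a large share at Supt16. This range includes part of an empty stretch at Dach1, described below. Whether plus-strand reads starting there can be aligned was not tested, so the share may not measure short deletions alone. Of plus-strand junctions within 10 kb downstream, 49 of 1315 (3.73%, 2.77 to 4.90) lay within 200 bp in the Dach1 library, 4.21% at equal reads, against 139 of 353 (39.4%, 34.2 to 44.7) in the Supt16 library (adjusted p = 5.71e-39, Fisher's exact test). The non-targeting libraries had 6 of 17 and 5 of 6 such junctions within 200 bp, Dach1 primer first. As reads the targeted shares were 7.84% and 77.1% (Dach1 first). When each position was merged with the next within 5 bp, whole runs of positions became 1 junction, and those beside the Supt16 bait end collapsed. The shares became 1.57% and 3.77%, and the adjusted p was 0.639 by Fisher's exact test. The difference in distinct junctions was thus called with each position counted singly and not after merging. Because dense runs collapse by construction, the merged value cannot show whether the difference rests on single-position counting.

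By window, the Dach1 library had 15 junctions at 1 to 20 bp, 24 at 21 to 50 bp, 9 at 51 to 100 bp and 0 at 101 to 200 bp, which allows up to 0.228%. In the Supt16 library the same windows held 18, 30, 36 and 54 junctions. At 201 to 500 bp there were 118 junctions (8.97%) in the Dach1 library and 95 (26.9%) in the Supt16 library. Farther out the order turned. At 501 to 1000 bp there were 273 (20.8%) and 51 (14.4%), at 1001 to 2000 bp 408 (31.0%) and 29 (8.22%), and at 2001 to 5000 bp 342 (26.0%) and 29 (8.22%), Dach1 first. All 9 windows beyond the bait end differed at equal reads, with adjusted p of at most 0.0245 by Fisher's exact test over 11 tests.

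**Figure D2:**
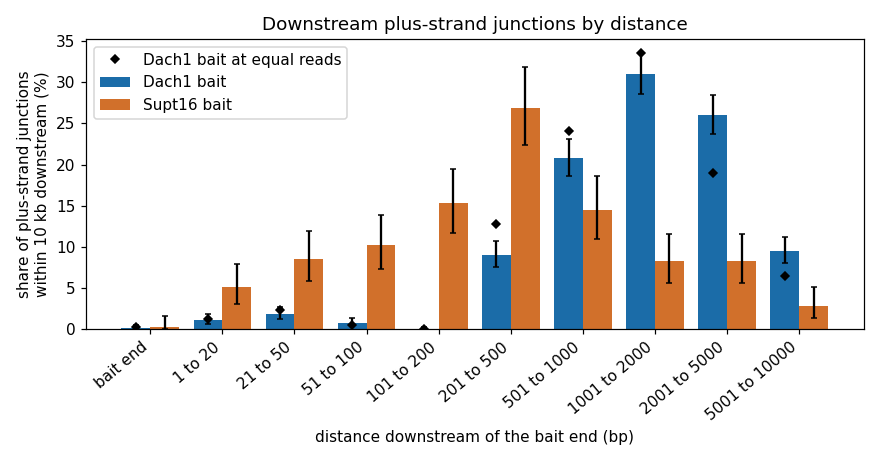
Share of plus-strand junctions within 10 kb downstream (y axis, %) by distance from the bait end (x axis, bp) in the Dach1 (1315 junctions) and Supt16 (353 junctions) sgRNA-only libraries, with exact 95% intervals; diamonds give the Dach1 library at equal reads. The Supt16 shares were highest at 201 to 500 bp (26.9%) and the Dach1 shares at 1001 to 2000 bp (31.0%).

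Besides the low shares from 1 to 100 bp, the Dach1 library had an empty stretch. No plus-strand junction lay between 81 and 350 bp downstream, 268 positions in a row, and a second empty stretch ran between 802 and 895 bp (92 positions). The first 1 kb held 440 plus-strand junctions in all. In the Supt16 library, with 285 junctions in the first 1 kb, no stretch of 50 bp or more was empty. The other Dach1 libraries had stretches at about the same distances. The Dach1 library with 10Q ataxin-7 (531 plus-strand junctions in its first 1 kb) had none between 112 and 339 bp and none between 809 and 900 bp. The sparser Dach1 library with 92Q ataxin-7 (74 junctions) had none between 72 and 359 bp and none between 789 and 912 bp, and 2 shorter empty stretches of 59 and 62 bp. The Supt16 libraries with ataxin-7, which were sparse, also had empty stretches. With 10Q (33 junctions in the first 1 kb) the widest ran between 488 and 755 bp (266 positions), and with 92Q (91 junctions) between 635 and 787 bp (151 positions). At 101 to 200 bp they had 2 of 36 and 16 of 98 junctions.

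Minus-strand junctions did lie inside the stretch. In the sgRNA-only Dach1 library 22 minus-strand junctions (35 reads) lay between 81 and 350 bp, 6 of them with a mapping quality of 30 or more. In the 10Q Dach1 library 27 minus-strand junctions lay in its corresponding stretch, 15 of them of that quality. Of all sgRNA-only Dach1 junctions within 1 kb, 74.3% had that quality. Whether plus-strand reads starting in the stretch can be aligned was not tested. Beyond 200 bp, without thinning, plus-strand junctions lay a median of 1319 bp downstream in the Dach1 library and 566.5 bp in the Supt16 library. That range still takes in part of the stretch.

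**Figure D3:**
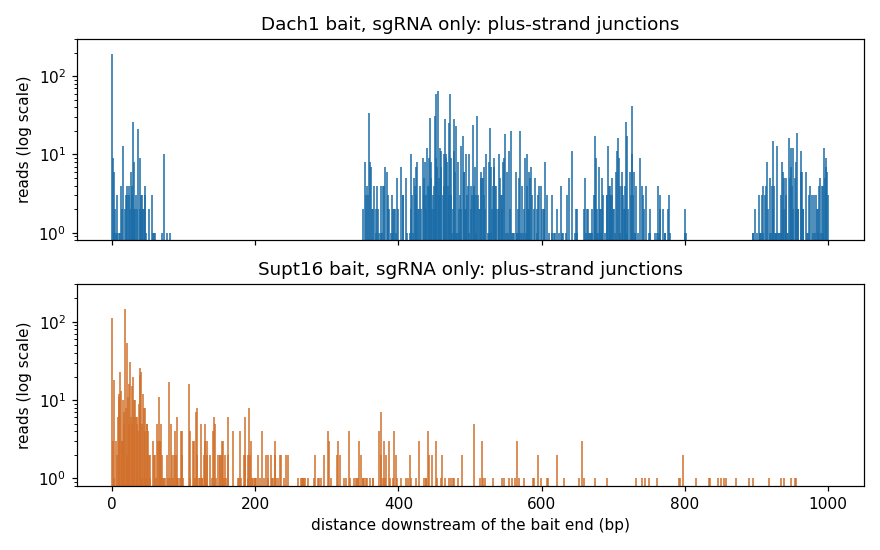
Reads at each plus-strand junction (y axis, log scale) by distance downstream of the bait end (x axis, bp) in the Dach1 (above) and Supt16 (below) sgRNA-only libraries. The Dach1 panel is empty between 81 and 350 bp and between 802 and 895 bp, whereas the Supt16 reads crowd the first 50 bp, with the tallest position at 18 bp (145 reads).

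The bait genes took different shares of the nearby junctions. Within 100 kb, 867 of 1918 junctions (45.2%, 43.0 to 47.5) were inside Dach1 in the Dach1 library, and 397 of 403 (98.5%, 96.8 to 99.5) were inside Supt16 in the Supt16 library. Downstream junctions leave Dach1 after 1039 bp and Supt16 after 15577 bp, and the part of this in the difference was not tested. Dach1 was the only protein-coding gene within 100 kb of its bait end, and the other 1051 junctions there lay outside protein-coding genes. Around the Supt16 bait end 6 protein-coding genes lay within 100 kb. Chd8, a chromatin remodeller next to Supt16 on the downstream side, held 4 junctions, and Rpgrip1, a gene of photoreceptor cilia on the upstream side, held 1. Hnrnpc (an RNA-binding protein), Rab2b (a small GTPase) and Tox4 (an HMG-box protein) held 0.

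The Dach1 promoter window fell within the dense range. RefSeq's window for the gene, 300 bases on the minus strand at chr14:98169716-98170015 (mm10), runs 990 to 1289 bp downstream of the bait end. Plus-strand junctions began at 230 of its 300 positions (76.7%), with 931 reads, and 199 of the 230 had a mapping quality of 30 or more. The non-targeting library had 3 junctions there. The sequence is shown because most of its bases served as a junction, and capitals mark the 19 bases where 10 or more reads began, the highest with 24 reads.

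Dach1 promoter: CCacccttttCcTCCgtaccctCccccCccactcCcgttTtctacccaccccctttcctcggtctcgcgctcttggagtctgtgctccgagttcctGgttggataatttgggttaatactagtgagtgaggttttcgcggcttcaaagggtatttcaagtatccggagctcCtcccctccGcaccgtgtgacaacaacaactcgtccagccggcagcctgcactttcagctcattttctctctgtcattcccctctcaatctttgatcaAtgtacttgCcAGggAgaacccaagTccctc

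The window is written in the direction of the gene, so its last bases are nearest the bait end. The capitals stood in groups at both ends, with few between. The Supt16 promoter window, 15528 to 15827 bp downstream of its bait end, held 0 junctions in the Supt16 library.

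Strand and side of the bait end separated the kinds of joining. A plus-strand prey downstream continues the chromosome past a deletion, and a minus-strand prey is inverted relative to the bait. Within 10 kb, downstream plus-strand junctions were 1315 of 1668 (78.8%, and 85.4% at equal reads) in the Dach1 library and 353 of 390 (90.5%) in the Supt16 library (adjusted p = 0.0382, Fisher's exact test). Upstream minus-strand junctions were 232 (13.9%, and 9.38% at equal reads) in the Dach1 library and 19 (4.87%) in the Supt16 library (adjusted p = 0.0382, Fisher's exact test). With reads within 50 bp of the bait end left out, the upstream minus-strand difference was 3.11 points with an adjusted p of 0.504 by Fisher's exact test. All plus-strand junctions together made 80.8% (86.9% at equal reads) in the Dach1 library and 92.8% in the Supt16 library (adjusted p = 0.00784, Fisher's exact test); this call, too, ended without those reads (-3.99 points, adjusted p = 0.162).

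The remaining classes were small. Downstream minus-strand junctions numbered 89 (5.34%) and 9 (2.31%), and upstream plus-strand junctions 32 (1.92%) and 9 (2.31%), Dach1 first, with adjusted p of 0.357 and 0.467 at equal reads by Fisher's exact test. Upstream minus-strand junctions lay a median of 2522 bp from the Dach1 bait end, farther than the 1287 bp of downstream plus-strand junctions there. At the Supt16 bait end these medians were 860 bp over 19 junctions and 314 bp. In the non-targeting libraries 0 of 19 and 0 of 10 junctions within 10 kb were upstream minus-strand, with the Dach1 and the Supt16 primer.

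**Figure D4:**
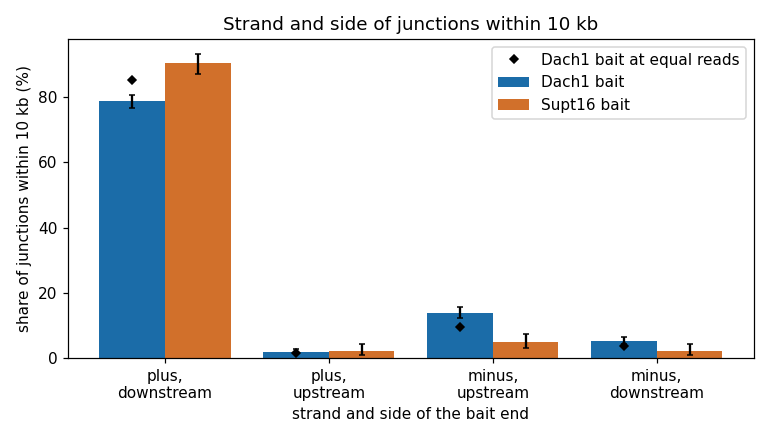
Share of junctions within 10 kb (y axis, %) by strand and side of the bait end (x axis) in the Dach1 (1668 junctions) and Supt16 (390 junctions) sgRNA-only libraries, with exact 95% intervals; diamonds give the Dach1 library at equal reads. Upstream minus-strand junctions stood at 13.9% in the Dach1 library and 4.87% in the Supt16 library.

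The link between side and strand at Dach1 changed with distance. At 1 to 10 kb the Dach1 library had 875 downstream plus, 53 downstream minus, 18 upstream plus and 204 upstream minus junctions. At 10 to 100 kb the same classes held 121, 34, 26 and 69 junctions, with plus strand still favoured downstream and minus strand upstream (adjusted p = 7.59e-15, Fisher's exact test within the library). At 1 to 20 Mb the link was turned round, with 29 downstream plus, 57 downstream minus, 54 upstream plus and 35 upstream minus junctions (adjusted p = 7.13e-04, Fisher's exact test). Of these 175 far junctions, 117 had a mapping quality of 30 or more, and the 4 classes among them counted 22, 39, 32 and 24. The remaining zones, which were not tested, showed no such turn. In the same class order they held 16, 15, 18 and 26 junctions at 100 kb to 1 Mb. Over 20 Mb, where nearly all lay upstream, they held 2, 6, 85 and 90. The Supt16 library showed the near pattern at 1 to 10 kb (68, 1, 3 and 8; adjusted p = 9.87e-08, Fisher's exact test). At 1 to 20 Mb it had only 7 junctions, too few to show either pattern.

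The rest of chromosome 14 took a larger share of the junctions outside 1 Mb in the Dach1 library. Among junctions beyond 1 Mb or on other chromosomes, 358 of 1880 (95% interval 17.3% to 20.9%) were on chromosome 14 in the Dach1 library, 19.6% at equal reads, against 18 of 171 (10.5%, 6.36 to 16.1) in the Supt16 library (adjusted p = 0.0128, Fisher's exact test). The non-targeting libraries had 8 of 109 with the Dach1 primer and 1 of 49 with the Supt16 primer. Without thinning, targeting minus non-targeting was 11.7 points at Dach1 and 8.49 points at Supt16. The exact test given at the end called no difference between these changes (3.22 points). The call depended on the reads kept. With a mapping quality of 30 or more the difference was 11.8 points with an adjusted p of 0.0631 by Fisher's exact test. With junctions of 2 or more reads, kept before thinning, it was -12.3 points, where the Supt16 share (33.3%) came from very few junctions.

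Density fell with distance at Dach1. Between 1 and 5 Mb from the bait end the Dach1 library had 79 junctions, 9.88 per Mb, 16.3 times (12.8 to 20.4, exact interval) its density on other chromosomes. Between 5 and 20 Mb it had 96 junctions, 5.28 times (4.25 to 6.49), and beyond 20 Mb 183 junctions, 3.69 times (3.15 to 4.31). Without a cut, the Dach1-primer non-targeting library had 8 junctions beyond 20 Mb, 2.43 times (1.02 to 4.97) its own density on other chromosomes. That interval overlaps the one of the cut library. The non-targeting library had 0 junctions in the 2 nearer zones, with upper limits of 11.7 times at 1 to 5 Mb and 3.11 times at 5 to 20 Mb. In the Supt16 library the same zones held 2, 5 and 11 junctions, at 4.12 times (0.495 to 15.1), 2.75 times (0.880 to 6.55) and 2.22 times (1.09 to 4.09) its density on other chromosomes. The Supt16 intervals were wide, and those of the nearer zones included 1. For 1 to 20 Mb against other chromosomes, the share was 10.6% at equal reads in the Dach1 library and 4.38% in the Supt16 library (adjusted p = 0.0606, Fisher's exact test). Without thinning it was 175 of 1697 (10.3%) against 7 of 160, with an adjusted p of 0.0363.

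**Figure D5:**
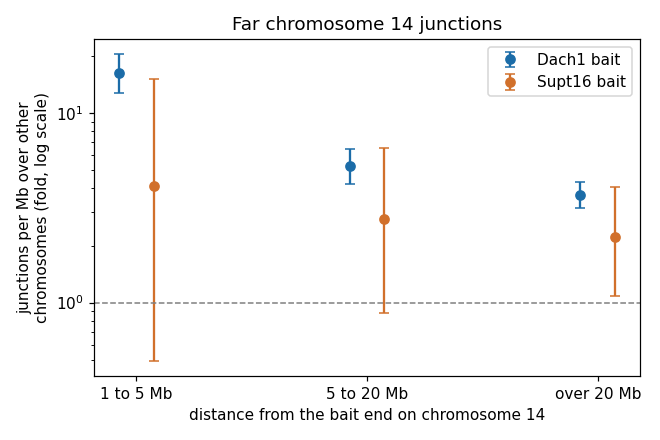
Junctions per Mb on chromosome 14 over junctions per Mb on other chromosomes (y axis, fold, log scale) by distance from the bait end (x axis) in the Dach1 and Supt16 sgRNA-only libraries, with exact 95% intervals; the dashed line marks equal density. The Dach1 fold fell with distance, 16.3, 5.28 and 3.69, while the Supt16 intervals at 1 to 5 Mb and 5 to 20 Mb included 1. Beyond 20 Mb the Dach1-primer non-targeting library, not plotted, stood at 2.43 times (1.02 to 4.97).

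Neither break was a frequent partner of the other bait. The bait ends lay 46.0 Mb apart, and 0 junctions of either library fell within 10 kb of the other bait end. Within 1 Mb of the Supt16 bait end the Dach1 library had 8 junctions, and within 1 Mb of the Dach1 bait end the Supt16 library had 0. These cells carried 1 sgRNA each, so the other bait was not a programmed break.

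Junctions to other chromosomes were 1522 of 3873 (39.3%, 37.8 to 40.9) in the Dach1 library, 31.5% at equal reads, and 153 of 575 (26.6%, 23.0 to 30.4) in the Supt16 library. The difference at equal reads missed the threshold (4.87 points, adjusted p = 0.0570, Fisher's exact test). By the same Fisher's exact test it passed without thinning (12.7 points, adjusted p = 3.82e-09), when reads were counted (15.4 points), with a mapping quality of 30 or more (5.70 points, adjusted p = 0.0425) and with junctions of 2 or more reads (20.3 points). It nearly vanished with positions within 5 bp merged (0.524 points, 47.6% against 47.1%, adjusted p = 0.788) and was 1.32 points without 50 bp around the bait end (adjusted p = 0.663), both by Fisher's exact test. Merging joined whole runs of near-bait positions, and the interchromosomal share rose in both libraries. The merging and the 2-read filter were applied before thinning, at unequal depth. In the non-targeting libraries these shares were 101 of 128 (78.9%) with the Dach1 primer and 48 of 59 (81.4%) with the Supt16 primer.

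Whether junctions to other chromosomes were translocations was not tested, and they were supported by few reads. They averaged 1.50 reads in the Dach1 library (1.14 at equal reads) and 1.06 in the Supt16 library, and 1142 of 1522 (75.0%) and 151 of 153 (98.7%) were single reads, Dach1 first. Only 583 (38.3%, and 41.7% at equal reads) in the Dach1 library and 61 (39.9%) in the Supt16 library had a mapping quality of 30 or more (adjusted p = 0.693, Fisher's exact test). By comparison, 74.3% and 78.4% of junctions within 1 kb had that quality, Dach1 first. Inside protein-coding genes lay 573 (37.6%, and 38.8% at equal reads) in the Dach1 library and 67 (43.8%) in the Supt16 library (adjusted p = 0.368, Fisher's exact test). Protein-coding gene bodies cover 37.8% of the genome span used, and the non-targeting libraries had 55 of 101 and 22 of 48 inside them.

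No prey chromosome differed detectably between the baits at the precision that 152 Supt16 junctions give. Of 19 chromosomes other than 14, 0 were called different (0%) without thinning, by Fisher's exact test with Benjamini-Hochberg adjustment. The smallest adjusted p from that test was 0.276. Unadjusted, 3 passed 0.05. Chromosome X held 106 of 1520 junctions (6.97%) in the Dach1 library and 3 of 152 (1.97%) in the Supt16 library, chromosome 8 held 101 (6.64%) and 17 (11.2%), and chromosome 9 held 46 (3.03%) and 10 (6.58%). When reads were counted, 1 chromosome was called.

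Clusters of junctions far from the bait end or on other chromosomes were mostly of low mapping quality. Whether they mark translocations was not tested. Loci with 3 or more junctions no more than 10 kb from one to the next, with those within 1 Mb of the break set aside, numbered 27 in the Dach1 library and 0 in the Supt16 library. At equal reads the Dach1 library kept 3.70 on average (2 to 6 over draws). In 25 of the 27 no junction had a mapping quality of 30 or more. Clusters are named here by their nearest gene, which can lie far away. The fullest were 25 junctions within 36 bp on chromosome 13 (nearest gene the pseudogene Gm11353) and 22 within 68 bp on chromosome 18 (lncRNA gene Gm31819). All had a mapping quality under 30. The chromosome 13 cluster began at 26615409, whereas Gm11353 ends at 26493219. 4930553C11Rik and Gm33780, both lncRNA genes, were the nearest genes to 9 junctions each. Dnajc6, a cochaperone that uncoats clathrin vesicles, the olfactory receptor gene Olfr9 and the lncRNA gene Gm34320 were the nearest genes to 7 each. Again 0 had a mapping quality of 30 or more. The genes just named were the nearest gene to no Supt16 junction and no non-targeting junction. A further cluster of the 27, in Cfap97d2, did have a Supt16 junction within it, as described below.

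The junctions shared by both libraries were few. Within 1 kb of each other, outside 1 Mb of the bait ends, lay 3 pairs of positions, which used 3 of 1880 Dach1 junctions (0.160%) and 2 of 171 Supt16 junctions (1.17%). All 3 pairs lay in Cfap97d2 on chromosome 8, where the Dach1 library had 6 junctions and the Supt16 library 2, and none had a mapping quality above 2.

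Long neural genes and common fragile site genes are known for breaking under replication stress, and were read as lists for that reason. The 30 long neural genes, matched in full, held 38 Dach1 junctions in 16 genes and 1 Supt16 junction. Off chromosome 14 these were 20 of 1522 (1.31%, 0.804 to 2.02) in the Dach1 library and 1 of 153 (0.654%, 0.0165 to 3.59) in the Supt16 library, beside 1.43% of the genome span. Of the fragile site list 15 of 16 genes matched, with 14 of 1522 (0.920%) in the Dach1 library and 1 of 153 (0.654%) in the Supt16 library off chromosome 14, beside 0.752% of the span. Neither share stood away from the length of the genes by more than its interval.

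On chromosome 14 itself the list members with most junctions were Pcdh9 and Gpc6. Pcdh9, a protocadherin of neuronal adhesion 4.28 Mb from the Dach1 bait end, had 11 Dach1 junctions in or near it, 7 of mapping quality 30 or more, spread over 1094556 bp. Gpc6, a cell-surface glypican 18.8 Mb away, had 6, 4 of them of that quality. Both lay in the part of chromosome 14 where the Dach1 library was dense, and both had 0 in the Supt16 library, whose bait end is 40.8 and 64.7 Mb away. The small nucleolar RNA gene Gm24127, 5.80 Mb from the Dach1 bait end, was the nearest gene to 6 Dach1 junctions, 4 of that quality. These junctions were spread over 639073 bp, and 0 lay inside the gene. Fhit, a fragile site gene, and Nrg3, a neuregulin, both far off on chromosome 14, had 3 each in the Dach1 library.

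Off chromosome 14 the members were thinly hit. Dlg2, a postsynaptic scaffold gene on chromosome 7, had 5 Dach1 junctions over 1609222 bp. Csmd3, Erbb4 (a neuregulin receptor), Grik2 (a kainate receptor subunit) and Naaladl2 had 2 each, and the Supt16 library had 0 in all 5 of these genes. Immp2l, a mitochondrial peptidase gene, had 2 Dach1 junctions 14 bp apart and 1 Supt16 junction, all of low mapping quality.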

How the data were processed

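The authors deposited 2 lists per library, on-cut and off-cut, 16 in the series, with 1 aligned read per line. The deposited lists hold 1 measurement, a mapping-quality score between 0 and 42. The submitters' processing notes name Bowtie2, mm10 and mm9, without roles. Scaffold names and bait positions in the lists fit mm10, which was used throughout. How reads were filtered is not given in the sources used here. All reads of the series came from 1 sequencing run by their read names.

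Both lists of a library were joined. The 5′ end of a read was its junction, and repeats of a chromosome, position and strand were collapsed, with 24 Dach1 and 3 Supt16 reads off assembled chromosomes left out. Gene bodies (49599 genes, 21775 protein-coding) and the promoter came from RefSeq (GRCm38.p6, which is mm10), after dropping 340 entries in the first 3 Mb of chromosomes. Spacers and primers came from the labels.

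Shares were tested in families (the 8 planned shares, and added families for windows, zones, orientation and far chromosome 14) with Python 3.11.15, scipy 1.17.1 and numpy 2.4.6. The bait-end test, the per-chromosome test and the tests within a library used all reads. Thinning, rarefaction and the per-chromosome test were checked on simulated libraries. Alternatives were no thinning, counting reads, merging positions within 5 bp, a mapping quality of 30 or more, 2 or more reads, leaving out positions seen in the non-targeting library, and leaving out 50 bp around the bait end. Merging joined each position to the next on its strand within 5 bp, so a run of any length became 1 junction. All filters and the merging were applied before thinning. Genes named were the bait genes, protein-coding genes within 100 kb, the genes with most junctions (up to 10 a library, at least 3, outside 1 Mb) and members of both lists with at least 2. A gene that meets this rule is not reported here. The comparison, gene lists and tests were chosen with earlier results of these data known, and the windows, zones, empty stretches, promoter and orientation classes after seeing them.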

Additional observations from a re-analysis of the deposited data

How the results depend on the processing

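Of 90 recomputed values, 66 kept their direction and side of the threshold or moved within the spread over draws. The cause was not tested for those that changed. The 2-read filter and the merging acted on full libraries of unequal depth, so their values are not free of depth. The ratio of distinct junctions (1.93) was 6.74 without thinning, 2.13 with positions within 5 bp merged, 4.36 with 2 or more reads, 1.83 without positions seen in the non-targeting library and 1.24 without 50 bp around the bait end. In the last setting the difference within 1 Mb was -5.22 points, in plus-strand share -3.99 points and in upstream minus-strand share 3.11 points, none past the threshold. The interchromosomal difference passed it without thinning (12.7 points), as reads (15.4), at a mapping quality of 30 or more (5.70) and with 2 or more reads (20.3), and shrank to 0.524 points merged and 1.32 without 50 bp. At that mapping quality the far chromosome 14 difference was 11.8 points and missed it, and the genic difference turned to 7.68 points from -4.98. With 2 or more reads the far chromosome 14 difference turned to -12.3 points. Without thinning the high-quality share turned to -1.56 points from 1.81. The difference within 1 kb (-33.0 points) was -16.9 points merged and -64.4 points with 2 or more reads. Merging gave -2.20 points for the share of downstream junctions within 200 bp. As reads, 1 chromosome was called, against 0. The difference in median distance (845 bp) was 1111.5 bp without thinning, 988 bp as reads, 1753 bp merged, 913 bp at the higher mapping quality, 953 bp with 2 or more reads and 784 bp without 50 bp. The junction ratio as reads is 1 by construction, and the bait-end share, fixed on all reads, has no thinned form; neither was run. No paired analysis was possible because each group is 1 library with no replicate. The 575 Supt16 junctions set the precision throughout.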

Other observations

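Outside 1 Mb of the bait end, the position with most reads in the Dach1 library was chromosome X 113298692 (minus strand) inside Dach2, the paralog of Dach1, with 44 reads. The same position had 31 reads in the non-targeting library of the Dach1 primer, 38 in the 10Q and 32 in the 92Q Dach1 library, and 0 in all 4 Supt16-primer libraries. It was thus read without a cut at Dach1. In the Supt16 library the corresponding position was on chromosome 9 at 64403676 inside Megf11, with 9 reads of mapping quality 0, and 0 reads there in the other 7 libraries.

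In the cluster named by Gm11353 the position with most reads, chromosome 13 26615422, had 38 reads in the sgRNA-only Dach1 library. It had 31 in the 10Q Dach1 library and 0 in the non-targeting library. In the cluster named by Gm31819, chromosome 18 72751631 had 19 reads in the sgRNA-only and 20 in the 10Q Dach1 library, and likewise 0 in the non-targeting library. Both positions had 0 reads in the 92Q Dach1 library and in the Supt16-primer libraries.

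Whether targeting changed the shares within 10 kb, within 1 Mb, on other chromosomes, on far chromosome 14 and in genes differently at the baits was tested against the non-targeting libraries with Zelen's exact test, which asks whether 2 odds ratios are equal. The adjusted p-values from this exact test lay between 0.206 and 1 for the 5 shares.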
